A study of Mus musculus with 6 samples.

Results

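A set of 10 genes that mark or govern radial glia was followed in cultured mouse embryonic brain cells after infection with a lentivirus against the repressor REST. The genes were Fabp7, Ptprz1, Prom1 and Ednrb, which encode proteins of the cytoplasm and membrane of radial glia, and Pax6, Nr2e1, Emx2, Lhx2, Gli3 and Rfx4, which encode transcription factors. Members were chosen by gene name, as all probe sets that the array's annotation assigns to exactly 1 of these 10 genes. A probe set is the group of short probes that reads 1 transcript. The rule found 22 probe sets for the 10 genes, of 45037 probe sets for 18193 named genes in all. Pax6 had 5 of them, Ptprz1, Gli3 and Ednrb 3 each, Nr2e1 and Rfx4 2 each, and Fabp7, Prom1, Emx2 and Lhx2 1 each.

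RNA of 6 samples was read on 1-colour Affymetrix arrays, 3 labelled REST shRNA and 3 labelled control shRNA, a short hairpin RNA being a construct that lowers its target transcript. All samples were NSP cells, an abbreviation that the labels do not spell out, from mouse brains at E12.5 (a day of embryonic development) that had been grown on coated dishes, dissociated and split. Both groups were infected overnight with a lentivirus and kept for 6 days before RNA was taken, so they differ by the hairpin alone as far as the labels go. The labels give no strain, brain region, hairpin sequence or share of infected cells, and do not state if a group's 3 samples are separate cultures, so a p-value here measures spread among samples that may be technical.

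Radial glia are the stem cells of the embryonic brain. They span its wall, divide at the ventricle, and give rise to neurons directly or through intermediate progenitors, and later to astrocytes and ependymal cells. The transcription factors among the 10 genes differ in role, from keeping these cells dividing to driving neurogenesis or patterning the brain, while the other 4 genes are used to recognise radial glia. REST binds a DNA element called RE1 and keeps many neuronal genes low in cells that are not neurons.

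Values are log2 signals as deposited, and a difference is the mean of the REST shRNA arrays minus the mean of the control arrays. The targeted transcript was lower: all 4 probe sets of Rest read lower with REST shRNA in every pair of arrays with the same replicate number, at 57.3% to 71.5% of control, with no overlap of the groups (unadjusted limma p from 0.0018 to 0.0323, adjusted p = 1.00 over all probe sets, exact two-sided permutation p = 0.1, the smallest value that 3 against 3 arrays can give). The loss of Rest was uneven over the pairs: its brightest probe set (1428227_at) differed by -0.28, -1.05 and -0.70 in pairs 1, 2 and 3. The others gave -0.22, -0.79 and -0.74 (1425565_at), -0.98, -0.84 and -0.59 (1425564_at), and -0.12, -0.71 and -0.63 (1425566_at). The last is dim, with a mean of 3.65. The 8 markers of neural stem and progenitor cells (Nes, Sox1, Sox2, Hes5, Msi1, Vim, Slc1a3 and Notch1) all read above the highest bacterial control probe set, 3.24, which is used here as a background level. So did all 10 neuron markers, all 8 astrocyte markers and 6 of 7 markers of the oligodendrocyte lineage, so transcripts of neural progenitors and of their descendants were both read. The signal at the 3′ end of Gapdh minus that at its 5′ end, a sign of RNA integrity, was 1.93, 1.93 and 2.25 in REST shRNA arrays 1, 2 and 3, against 1.94, 1.72 and 2.87 in the control arrays. REST shRNA array 2 stood farthest from its group, with a spread of deviations of 0.46 against 0.22 to 0.39 in the other arrays. For the brightest probe sets of the 10 genes, differences that rest on it are given with and without it. Mean differences of genes in other lists are given with all 6 arrays only.

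The regions before the gene starts are shown for the 2 genes whose probe sets all read lower in every pair and for the gene with the widest swing, because REST acts through DNA elements that can lie near gene starts. The windows hold the 250 bases before the start in RefSeq (GRCm38.p6), 5′ to 3′ on the gene's strand, at chr10:57784673-57784922 (plus strand) for Fabp7, chr6:22875252-22875501 (plus strand) for Ptprz1 and chr14:103843702-103843951 (minus strand) for Ednrb. Capitals mark matches to the motifs named after them, TGGGAA in the Fabp7 window (as TTCCCA, its reverse complement) and GGACAG in the Ptprz1 window, and the Ednrb window holds none.
Fabp7: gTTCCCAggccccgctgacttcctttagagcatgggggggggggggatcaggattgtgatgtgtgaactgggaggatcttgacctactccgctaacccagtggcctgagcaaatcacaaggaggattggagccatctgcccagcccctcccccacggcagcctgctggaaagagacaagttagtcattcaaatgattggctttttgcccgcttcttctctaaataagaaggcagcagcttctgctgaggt
Ptprz1: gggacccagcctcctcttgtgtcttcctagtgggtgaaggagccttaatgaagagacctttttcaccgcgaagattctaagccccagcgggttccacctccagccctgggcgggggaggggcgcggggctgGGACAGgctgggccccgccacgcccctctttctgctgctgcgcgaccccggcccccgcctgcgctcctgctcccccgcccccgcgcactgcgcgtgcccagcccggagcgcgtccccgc
Ednrb: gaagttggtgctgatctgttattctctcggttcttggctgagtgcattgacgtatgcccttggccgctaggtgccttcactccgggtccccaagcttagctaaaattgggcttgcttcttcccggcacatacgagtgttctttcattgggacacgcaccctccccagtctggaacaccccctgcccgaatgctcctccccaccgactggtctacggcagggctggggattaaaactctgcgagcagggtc

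The 10 genes had 14 such windows, and both strands were searched for 7 motifs, none of which overlapped another in these windows. The left part of RE1, TTCAGCACC, was in 0 of the 14 windows, and 0.301% of all 32851 windows hold it. The right part, GGACAG, was in 3 windows, of Lhx2, Prom1 and Ptprz1, against 18.7% of all windows. The RBPJ core of Notch signalling, TGGGAA, stood in 6 windows, of Lhx2, Prom1, Nr2e1, Fabp7 and Emx2, against 21.6% of all windows. The RFX core GTTGCC was in 1 window, of Pax6, against 10.4%. The GLI site TGGGTGGTC (0.225% of all windows), the homeodomain core TAATTA (4.84%) and the POU octamer ATGCAAAT (1.60%) were in none of the 14. Windows of the 10 genes ranged from 42.0% to 72.8% G and C, against a median of 52.4% over all windows, with the Fabp7 window at 54.8% and 4 CpG, the Ptprz1 window at 71.6% and 22 CpG, and the Ednrb window at 56.8% and 11 CpG. A match is a description of letters and no evidence of binding.

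Across the 10 genes the REST shRNA arrays tended to read lower, by a small amount that no probe set carried past the adjusted threshold. Of the 22 probe sets 18 had a negative difference, 81.8%, against 47.4% of all probe sets. Taking the brightest probe set of each gene, 9 of 10 were negative, Gli3 being the exception, against 42.8% of all genes. Their median was -0.29, against 0.04 over all genes. With limma, 0 of the 22 passed an adjusted p of 0.05, and 0 of all 45037 probe sets did (0% called), the smallest adjusted p of the whole table being 0.922. At an unadjusted p under 0.05, 2 of the 22 were lower, both of Ptprz1, against 1.93% of all probe sets, and 0 were higher, against 1.54%. Over all probe sets that is 692 higher and 868 lower, and with arrays centred on their median 899 higher and 675 lower. With the replicate number as a block, neither of these 2 stayed under 0.05 (unadjusted p = 0.0993 and 0.0940). By pair, 7, 6 and 8 of the 10 genes were lower in pairs 1, 2 and 3, with medians of -0.34, -0.29 and -0.16. The medians over all genes were 0.01, -0.01 and 0.11. By probe set, 15, 14 and 15 of the 22 were lower, against 50.0%, 49.2% and 46.5% of all probe sets. Without REST shRNA array 2 the median over the 10 genes was -0.16, with 12 of 22 probe sets negative.

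**Figure D1:**
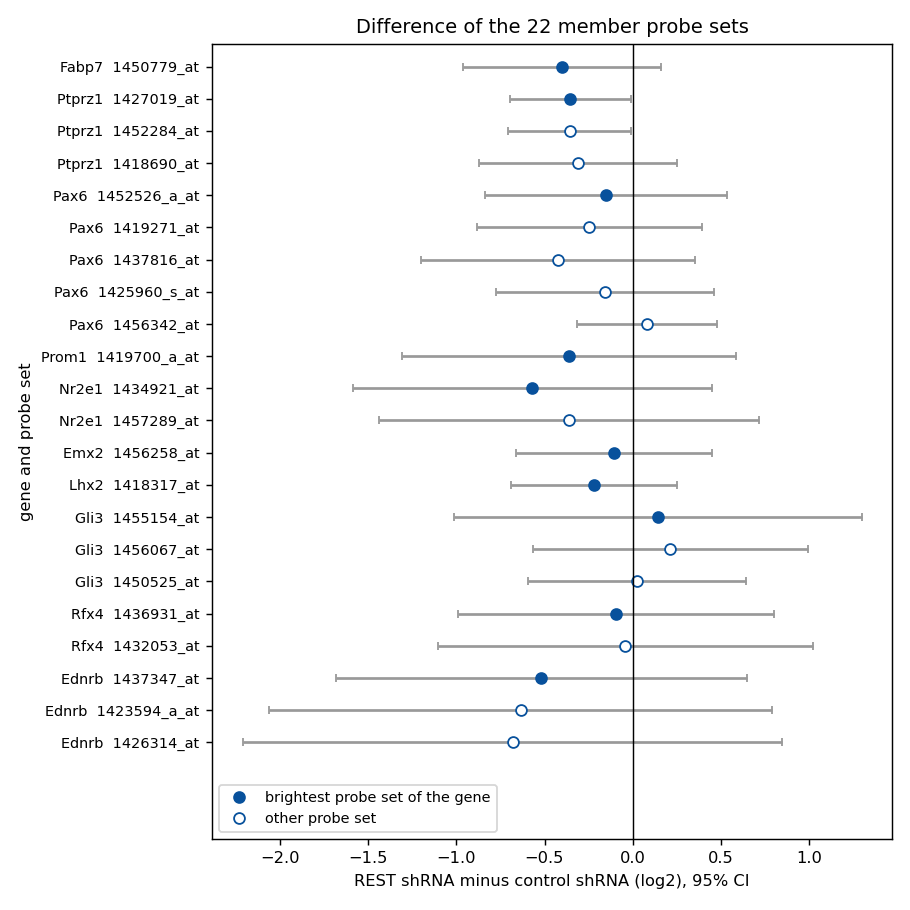
Difference between the REST shRNA and control shRNA arrays for the 22 probe sets, on the log2 scale (x axis), with 95% confidence intervals from limma (n = 3 arrays each). Filled dots are the brightest probe set of a gene; 20 of the 22 intervals include 0, the exceptions being 2 probe sets of Ptprz1.

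Fabp7 and Ptprz1 read lower in the REST shRNA array of every pair with all their probe sets, the brightest at 75.7% and 78.2% of control, and are described first. Fabp7 encodes the brain lipid binding protein, a carrier of fatty acids in the cytoplasm of radial glia. Its probe set (1450779_at) read 12.42, 12.64 and 11.91 in REST shRNA arrays 1, 2 and 3, against 12.88, 12.84 and 12.45 in control arrays 1, 2 and 3. Within a number the REST shRNA array was lower each time, but the groups overlap, since control array 3 lies below REST shRNA array 2. The means were 12.32 ± 0.38 with REST shRNA and 12.72 ± 0.23 with control shRNA (SD, n = 3 each), a level of 75.7% of control. The difference was -0.40 (95% CI -0.96 to 0.16, exact permutation p = 0.2, unadjusted limma p = 0.134, adjusted p = 1.00). Leaving out REST shRNA array 3 gave -0.19, and leaving out array 2 gave -0.56, so its size, but not its sign, turned on single arrays.

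Ptprz1 encodes a receptor tyrosine phosphatase with chondroitin sulphate chains on the surface of radial glia, which binds the growth factor pleiotrophin. Its brightest probe set (1427019_at) read 10.99, 10.90 and 10.85 in the REST shRNA arrays and 11.17, 11.28 and 11.36 in the control arrays. A second one (1452284_at) read 10.07, 9.83 and 9.88 with REST shRNA and 10.26, 10.26 and 10.33 with control shRNA. In both, every REST shRNA array lay below every control array, which held for 3.90% of all probe sets and for no other of the 22. The spread was narrow, with means of 10.91 ± 0.07 and 11.27 ± 0.10 for the brightest one in the REST shRNA and control groups (SD, n = 3 each). Its difference was -0.35 (95% CI -0.70 to -0.01), or 78.2% of control, with an unadjusted limma p of 0.0448 and an adjusted p of 1.00. For the second it was -0.36 (95% CI -0.71 to -0.01), or 78.0% of control, with an unadjusted limma p of 0.0456. The third (1418690_at) read 9.44, 9.08 and 9.65 with REST shRNA and 9.62, 9.40 and 10.07 with control shRNA, lower in each pair by 0.18, 0.32 and 0.43 but with overlapping groups (difference -0.31, 95% CI -0.87 to 0.25). The exact permutation p was 0.1 for both separated probe sets, the smallest possible here. For the brightest, the unadjusted p ranged from 0.0585 to 0.112 when single arrays were left out, while the difference kept between -0.41 and -0.31.

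Being lower in all 3 pairs was shared by 6 of the 22 probe sets, against 11.0% of all probe sets. They were the 4 of Fabp7 and Ptprz1, 1 of the 5 of Pax6 (1437816_at) and 1 of the 2 of Nr2e1 (1434921_at). For the last 2 genes, most of the difference came from the pair numbered 2.

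**Figure D2:**
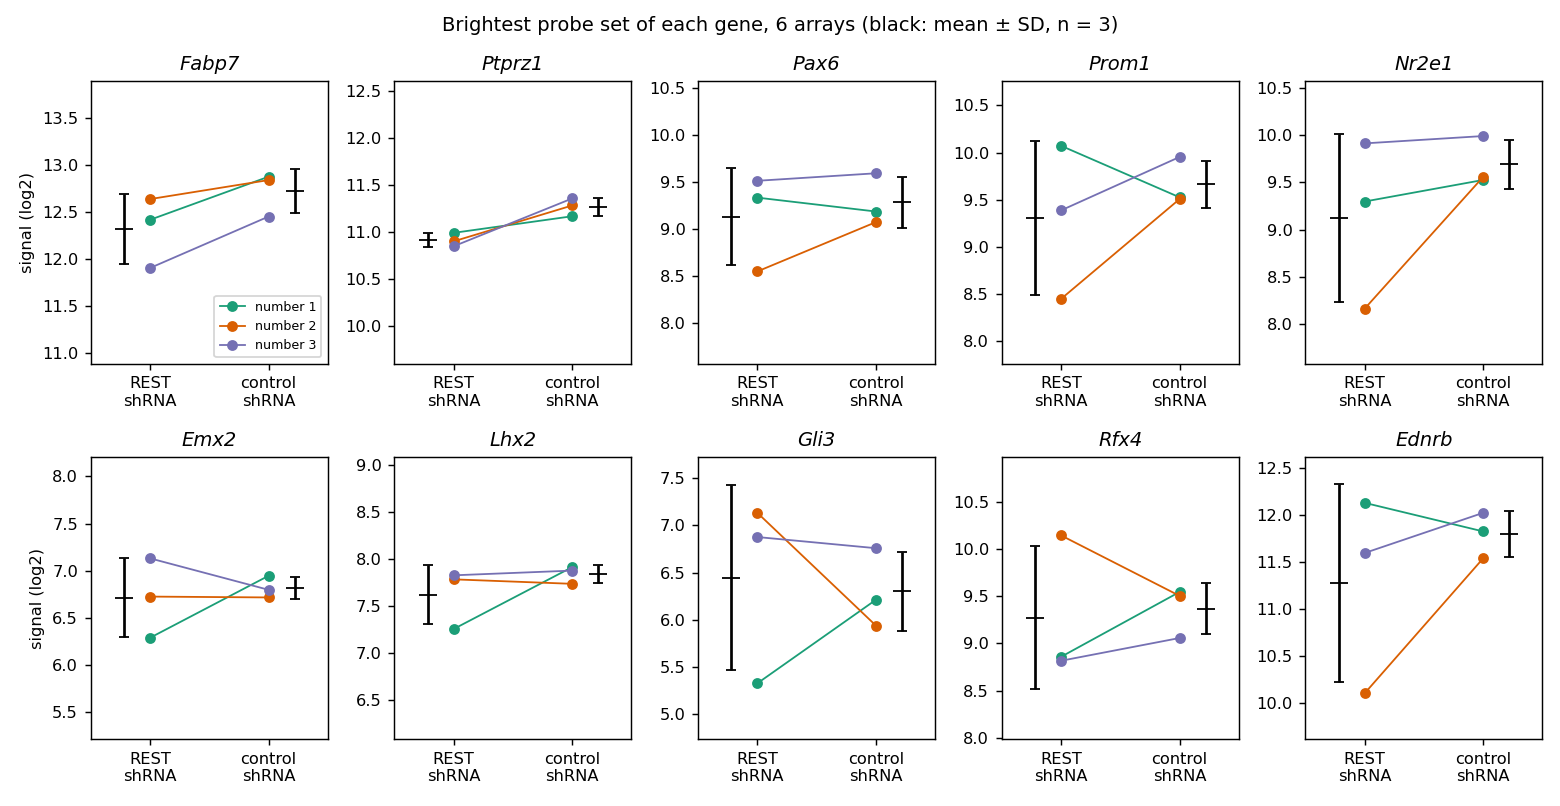
Log2 signal (y axis, 3 units high in each panel) of the brightest probe set of each gene in the REST shRNA and control shRNA arrays; lines join arrays with the same replicate number, and black marks give mean ± SD (n = 3). Ptprz1 is the gene whose groups do not overlap, and REST shRNA array 2 is the lowest point for Pax6, Prom1, Nr2e1 and Ednrb and the highest for Gli3 and Rfx4.

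The other surface markers, Ednrb and Prom1, differed mainly in REST shRNA array 2. Ednrb encodes the endothelin receptor type B, a receptor of radial glia, astrocytes and neural crest. Its brightest probe set (1437347_at) read 12.13, 10.11 and 11.60 with REST shRNA and 11.83, 11.54 and 12.02 with control shRNA. Array 2 of the REST shRNA group was far below all others, array 1 above all controls, and array 3 within the range of the controls. The pair differences were 0.30, -1.43 and -0.43 for numbers 1, 2 and 3. In both other probe sets of Ednrb array 3 of the REST shRNA group lay just below all controls, and the pair differences had the same signs, with 0.29, -1.87 and -0.33 for 1423594_a_at and 0.46, -1.98 and -0.52 for 1426314_at. The mean differences were -0.52, -0.64 and -0.68, each with an unadjusted limma p of 0.326 or 0.327, and without REST shRNA array 2 they were 0.07, 0.10 and 0.09. Standard deviations were 1.05 to 1.42 with REST shRNA and 0.20 to 0.24 with control shRNA over the 3 probe sets.

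Prom1 encodes prominin-1, known as CD133, a membrane protein of the apical surface of neural stem cells. Its probe set (1419700_a_at) read 10.07, 8.45 and 9.39 with REST shRNA and 9.53, 9.51 and 9.95 with control shRNA. As for Ednrb, REST shRNA array 1 was the highest of all 6 and array 2 the lowest. The difference was -0.36 (95% CI -1.31 to 0.59, exact permutation p = 0.5), and 0.07 without REST shRNA array 2.

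Nr2e1 and Pax6, factors that maintain radial glia, had the same low point. Nr2e1, also known as TLX, encodes an orphan nuclear receptor that keeps neural stem cells from leaving the cell cycle. Its brightest probe set (1434921_at) read 9.30, 8.16 and 9.91 with REST shRNA and 9.53, 9.56 and 9.99 with control shRNA. Array 2 of the REST shRNA group stood far below the controls, array 1 just below them and array 3 among them, and the pair differences were -0.23, -1.40 and -0.08. The mean difference was -0.57 (95% CI -1.59 to 0.45, exact permutation p = 0.4), the largest in size among the brightest probe sets of the 10 genes, and -0.09 without REST shRNA array 2. Without REST shRNA array 3 it was -0.96, with an unadjusted limma p of 0.0391. A second probe set (1457289_at), at 7.28, 6.24 and 8.20 with REST shRNA and 7.68, 7.48 and 7.63 with control shRNA, was lower in pairs 1 and 2 and higher in pair 3 (difference -0.36, 95% CI -1.44 to 0.72).

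Pax6 encodes a paired and homeodomain factor of dorsal forebrain radial glia that drives neurogenesis. Its brightest probe set (1452526_a_at) read 9.33, 8.55 and 9.51 with REST shRNA and 9.19, 9.07 and 9.59 with control shRNA. Apart from the low array 2, REST shRNA and control arrays lay in the same range. A second probe set (1419271_at) read 8.65, 7.80 and 8.76 with REST shRNA and 8.63, 8.56 and 8.75 with control shRNA, so that pairs 1 and 3 differed by 0.01 and 0.00 and pair 2 by -0.76. The difference was -0.15 (95% CI -0.84 to 0.53) for the brightest and -0.25 (95% CI -0.88 to 0.39) for this one, and 0.14 and 0.05 without REST shRNA array 2. With 1437816_at and 1425960_s_at, the 4 probe sets above background had differences from -0.42 to -0.15, all lower in pair 2, by 0.52 to 0.99. The fifth (1456342_at), the sole one of the 22 below the bacterial reference, averaged 2.65 ± 0.05 with REST shRNA and 2.57 ± 0.22 with control shRNA (SD, n = 3 each) and carries no reading of Pax6.

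**Figure D3:**
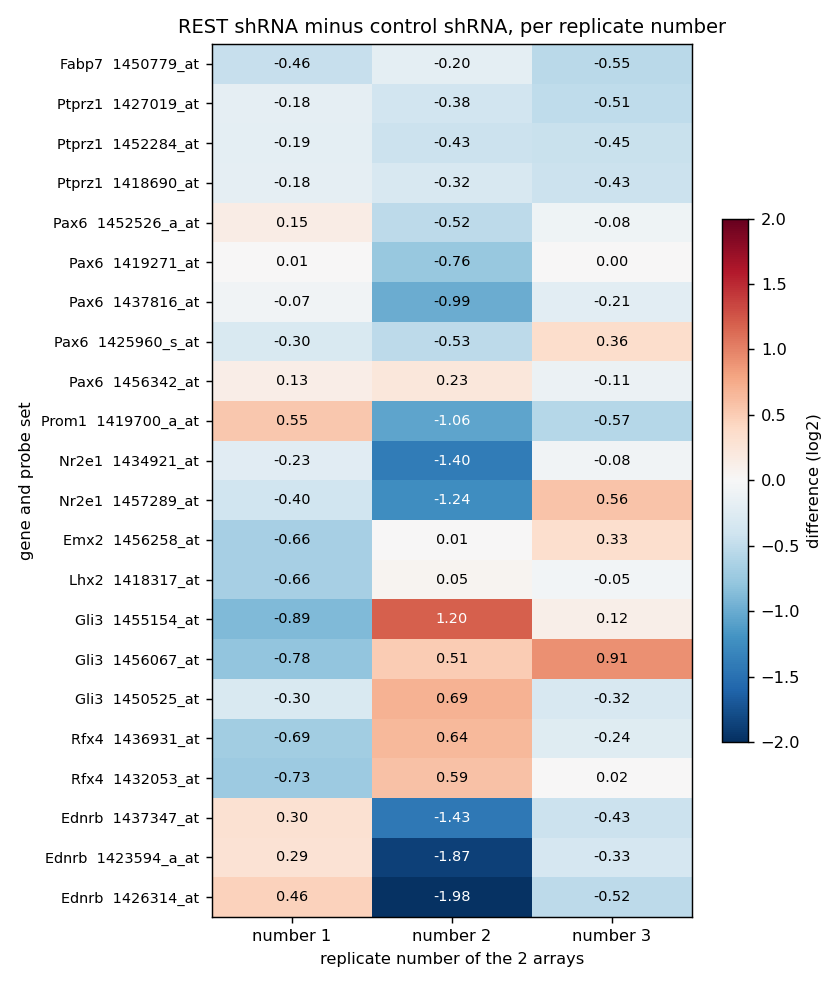
REST shRNA minus control shRNA (log2, colour and printed value) for the 22 probe sets (rows) in each pair of arrays with the same replicate number (columns). Blue is lower and red higher with REST shRNA. Fabp7 and Ptprz1 are blue in all 3 columns. Every probe set of Gli3, Rfx4, Ednrb, Prom1, Emx2 and Lhx2 changes sign between pairs 1 and 2, as do some of Pax6.

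The patterning factors Emx2, Lhx2, Gli3 and Rfx4 are described last of the 10: the brightest probe set of each was lower in pair 1, by 0.66 to 0.89, and higher in pair 2, by 0.01 to 1.20. For the other 6 genes the brightest probe set was lower in pair 2. Emx2, a homeobox factor that patterns the cortex (1456258_at), read 6.29, 6.73 and 7.13 with REST shRNA and 6.95, 6.72 and 6.80 with control shRNA. Array 1 of the REST shRNA group was the lowest of the 6 and array 3 the highest, so the mean difference was small, -0.10 (95% CI -0.66 to 0.45), and it was 0.11 without REST shRNA array 1. Lhx2, a LIM homeodomain factor that keeps cortical identity (1418317_at), read 7.26, 7.79 and 7.83 with REST shRNA and 7.92, 7.74 and 7.88 with control shRNA. Here again array 1 alone was low, with pair differences of -0.66, 0.05 and -0.05, and the mean difference of -0.22 (95% CI -0.69 to 0.25, exact permutation p = 0.3) was -0.04 without that array.

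Gli3 encodes a zinc finger factor that, as a repressor, limits Hedgehog signalling in the dorsal brain. Its brightest probe set (1455154_at) read 5.32, 7.13 and 6.88 with REST shRNA and 6.21, 5.94 and 6.76 with control shRNA. REST shRNA array 1 was the lowest and array 2 the highest of the 6, so the pairs differed by -0.89, 1.20 and 0.12. The mean difference of 0.14 (95% CI -1.01 to 1.30) was 0.70 when REST shRNA array 1 was left out, at an unadjusted limma p of 0.0499, and -0.20 when array 2 was. The other 2 probe sets, 1456067_at and 1450525_at, differed by 0.21 and 0.02, and all 3 were lower in pair 1 and higher in pair 2.

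Rfx4 encodes a winged helix factor of the RFX family, needed in mice for dorsal midline development and for cilia of neural progenitors. Its brightest probe set (1436931_at) read 8.86, 10.15 and 8.82 with REST shRNA and 9.55, 9.51 and 9.06 with control shRNA. REST shRNA arrays 1 and 3 lay below all controls and array 2 above them. The difference was -0.10 (95% CI -0.99 to 0.80), and -0.53 without REST shRNA array 2, at an unadjusted limma p of 0.0396. A dimmer one (1432053_at) read 4.65, 6.06 and 4.58 with REST shRNA and 5.38, 5.47 and 4.56 with control shRNA, with array 2 again at the top and a difference of -0.04.

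The members thus fell into different orders over the same 3 REST shRNA arrays. REST shRNA array 2 was the lowest of all 6 arrays for 12 of the 22 probe sets and the highest for 4, against 24.0% and 24.4% of all probe sets. REST shRNA array 1 was the lowest for 5, against 13.5%. A difference of at least 1 log2 unit was reached in pair 2 by 6 probe sets in the lower direction (all 3 of Ednrb, both of Nr2e1, and Prom1), against 3.85% of all probe sets, and by 1 of Gli3 in the higher direction, against 3.28%. In pair 1 there were 0 of 22 that far apart (background 0.979% lower and 1.15% higher), and in pair 3 also 0 (4.33% lower and 2.27% higher). The standard deviation was larger with REST shRNA than with control shRNA for 19 of the 22, against 65.1% of all probe sets. Its median over the members was 0.56 with REST shRNA and 0.22 with control shRNA. Over all probe sets the medians were 0.28 and 0.20, and over those above background 0.33 and 0.22. Probe sets of 1 gene share their transcript and are not separate observations.

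**Figure D4:**
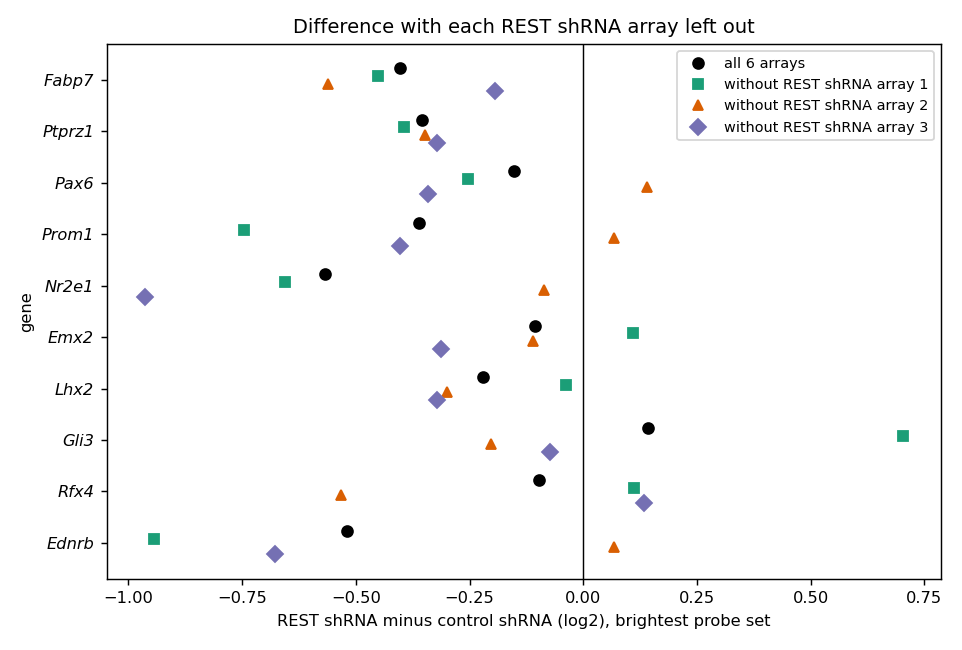
Difference (log2, x axis) of the brightest probe set of each gene with all 6 arrays and with each REST shRNA array left out. Ptprz1 stays between -0.39 and -0.32, Prom1, Pax6 and Ednrb move above 0 without array 2 and Emx2 without array 1, and Gli3 and Rfx4 also cross 0.

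Likeness of pattern over the 6 arrays was measured as the root mean square distance between log2 values centred on each gene's own mean, among 13830 other genes above background. Of the members, Emx2 and Lhx2 were closest to each other, at 0.13, then Prom1 and Ednrb, at 0.20, while Gli3 and Ednrb were farthest apart, at 1.16. The nearest genes of all were Pdha1 and Slc23a1 for Fabp7 (0.07 and 0.09), Pibf1 and Nova1 for Ptprz1 (0.05 and 0.06), Hipk2 and Ncam1 for Pax6 (0.04 and 0.06), and 4931406C07Rik and Rnf13 for Prom1 (0.10 and 0.11). For Nr2e1 they were Tcp11l2 and Gpr155 (both 0.09), for Emx2 Lcmt2 and Pam (0.07 and 0.09), for Lhx2 Tsc22d2 and Pnpla3 (0.04 and 0.07), for Gli3 Lratd1 and Klhl21 (0.14 and 0.16), for Rfx4 Nemp1 and Fanca (0.07 and 0.09) and for Ednrb Pcdhb17 and Kif21a (0.07 and 0.11). The members' own root mean square deviations ran from 0.19 (Ptprz1) to 0.67 (Ednrb), and the distances are a description.

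Other radial glia and neural stem cell genes are given for comparison. Of 33 measured genes, each read by its brightest probe set, 0 passed the adjusted threshold. At an unadjusted limma p under 0.05, 0 were lower and 0 higher, against 1.04% and 1.69% of all genes. Their median difference was -0.11, against -0.29 for the 10 genes, with 23 negative, and their mean differed by -0.12, -0.30 and 0.17 in pairs 1, 2 and 3. Fgfr3, a fibroblast growth factor receptor of progenitors and astrocytes, differed by -0.70 ± 0.34 (SE) and Hopx, a homeodomain-only protein of outer radial glia in primates, by 1.10 ± 0.56. Their dimmer probe sets differed by -0.41 for Fgfr3 and 0.98 for Hopx, the latter at an unadjusted limma p of 0.0147. Sox2, a core factor of neural stem cells, differed by -0.38 ± 0.23 and Notch1, the receptor that maintains progenitors, by -0.25 ± 0.18. These 2 were the stem and progenitor markers with the smallest p among 8, of which 7 were negative, with a median of -0.23. Over all genes 42.8% were negative. By pair, 4, 7 and 5 of these 8 markers were lower in pairs 1, 2 and 3, with list means of -0.09, -0.36 and -0.03. The positive marker was Nes at 0.31, with -0.44, 1.42 and -0.06 in the pairs. Intermediate progenitor and neuroblast genes had a median of -0.12 over 15 genes, 10 of them negative, and means of -0.24, -0.56 and 0.47 in the pairs, so the third pair ran against the others. In that list Sstr2, a somatostatin receptor, differed by 0.54 ± 0.24, and Dll1, a Notch ligand, by -0.61 ± 0.28, and 0 of the 15 reached an unadjusted p of 0.05.

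Partners of single members were read in the same fit, and 0 in any of these lists passed the adjusted threshold. For Ptprz1, 5 of 9 ligands and partners were negative, with a median of -0.01 and 0 at an unadjusted p under 0.05. Its ligand pleiotrophin, Ptn, differed by -0.17 ± 0.19 (SE), lower in each pair by 0.12, 0.21 and 0.19, and Nrcam, a neuronal adhesion molecule, by -0.50 ± 0.22, with other probe sets from -0.26 to 0.14. For Ednrb, the endothelin pathway list of 6 measured genes had a median of 0.11. Ece1, the enzyme that makes active endothelin, read 8.86 on average with REST shRNA and 9.68 with control shRNA, a difference of -0.82 ± 0.28 at an unadjusted limma p of 0.0235 and an adjusted p of 1.00. The pairs gave -1.04, -1.40 and -0.03, and its other probe sets differed by -0.68 and -0.65. It was the sole gene of that list under 0.05, and Edn1, an endothelin precursor at background, differed by 0.15 ± 0.14.

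For Gli3, 8 of 12 Hedgehog pathway genes were negative with a median of -0.04, and 0 reached an unadjusted p of 0.05. Ptch1, the Hedgehog receptor and a target of the pathway, differed by -0.44 ± 0.22 (SE) and was lower in each pair, by 0.30, 0.58 and 0.45. Kif7, a kinesin of the cilium that regulates Gli proteins, differed by -0.32 ± 0.15, also lower in each pair. Among 9 RFX family and cilium genes 8 were negative, with a median of -0.19, Rfx5 at -0.47 ± 0.22 and Foxj1, a factor of motile cilia, at -0.68 ± 0.37. Cofactors and repressed genes of Nr2e1 had a median of 0.12 over 6 genes, with the deacetylase Hdac3 at 0.15 ± 0.17 and the zinc finger factor Bcl11a at 0.32 ± 0.36, with its other probe sets from -0.23 to 0.29. Among relatives, 15 of 18 LIM homeodomain genes and cofactors were positive with a median of 0.12, Lmo2 at 0.48 ± 0.25 and Isl1, at background, at 0.34 ± 0.16. Other fatty acid binding proteins had a median of -0.12 over 6 genes, with Fabp4 at -0.41 ± 0.17 and Fabp3 at 0.36 ± 0.17. Their dimmer probe sets had the opposite sign, at 0.02, 0.27 and 0.15 for Fabp4 and -0.06 for Fabp3. Other Pax genes had a median of 0.07 over 7, with Pax7 at 0.35 ± 0.20 and Pax8 at -0.16 ± 0.18, both below background and each with a second probe set of the opposite sign, at -0.15 for Pax7 and 0.54 for Pax8. In none of these 5 lists did the brightest probe set of a gene reach an unadjusted limma p of 0.05. The second Pax8 probe set, also below background, had an unadjusted limma p of 0.0192.

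Markers of descendant cells and of the cell cycle also differed between pairs, and their values are given beside those of the members. In bulk RNA, fewer cells of a type and less RNA per cell cannot be told apart. The summed linear signal of 8 astrocyte markers was 6820, 3352 and 8430 in REST shRNA arrays 1, 2 and 3, against 7136, 5586 and 6806 in the control arrays, and the list mean differed by -0.09, -1.31 and 0.21 in the pairs. The low array was the one in which Ednrb, Prom1, Nr2e1 and Pax6 were low. All 8 astrocyte markers had a negative mean difference, with a median of -0.32. By pair, 6, 7 and 2 of the 8 were lower in pairs 1, 2 and 3. Slc1a2, a glutamate transporter, differed by -0.70 ± 0.20 (SE), at an unadjusted limma p of 0.0108. Aqp4, a water channel, differed by -1.08 ± 0.83, with -0.13, -2.65 and -0.46 in the pairs. Gfap, an astrocyte filament protein, gave 1.18, -3.27 and 1.00 in the pairs. Summed over 16 proliferation genes the signal was 5882, 17202 and 2906 with REST shRNA, against 8863, 9596 and 2882 with control shRNA, and the list mean differed by -0.61, 1.04 and 0.09 in the pairs. Rfx4 and Gli3 (brightest probe sets), like this sum, had their highest reading in REST shRNA array 2. Gli3, unlike the sum, had its lowest in REST shRNA array 1. The median of the proliferation list was 0.13, with Tyms, which makes thymidylate, at 0.68 ± 0.43 and Ccne1, cyclin E, at 0.49 ± 0.48. The part of these markers in the members' differences was not tested.

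Most neuron markers stood higher while most members stood lower. Of 10 neuron markers 8 were positive with a median of 0.80. Over all genes the median was 0.04, with 42.8% negative. At an unadjusted limma p under 0.05, 5 of the 10 markers were higher, against 1.69% of all genes, and 0 passed the adjusted threshold. The negative markers were Dcx at -0.20 and Map2 at -0.10, and 1, 2 and 2 of the 10 were lower in pairs 1, 2 and 3. Snap25, a protein of vesicle release and a known REST target, averaged 9.12 ± 0.12 with REST shRNA and 7.54 ± 0.43 with control shRNA (SD, n = 3 each), and Gap43, a protein of growing axons, differed by 1.13 ± 0.30 (SE). The list's summed signal was 6955, 5350 and 7740 with REST shRNA and 4424, 4311 and 5271 with control shRNA, higher in each pair. Fabp7 and Ptprz1 were lower in each of these pairs. That this signal comes from neurons, from progenitors or from both was not tested.

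**Figure D5:**
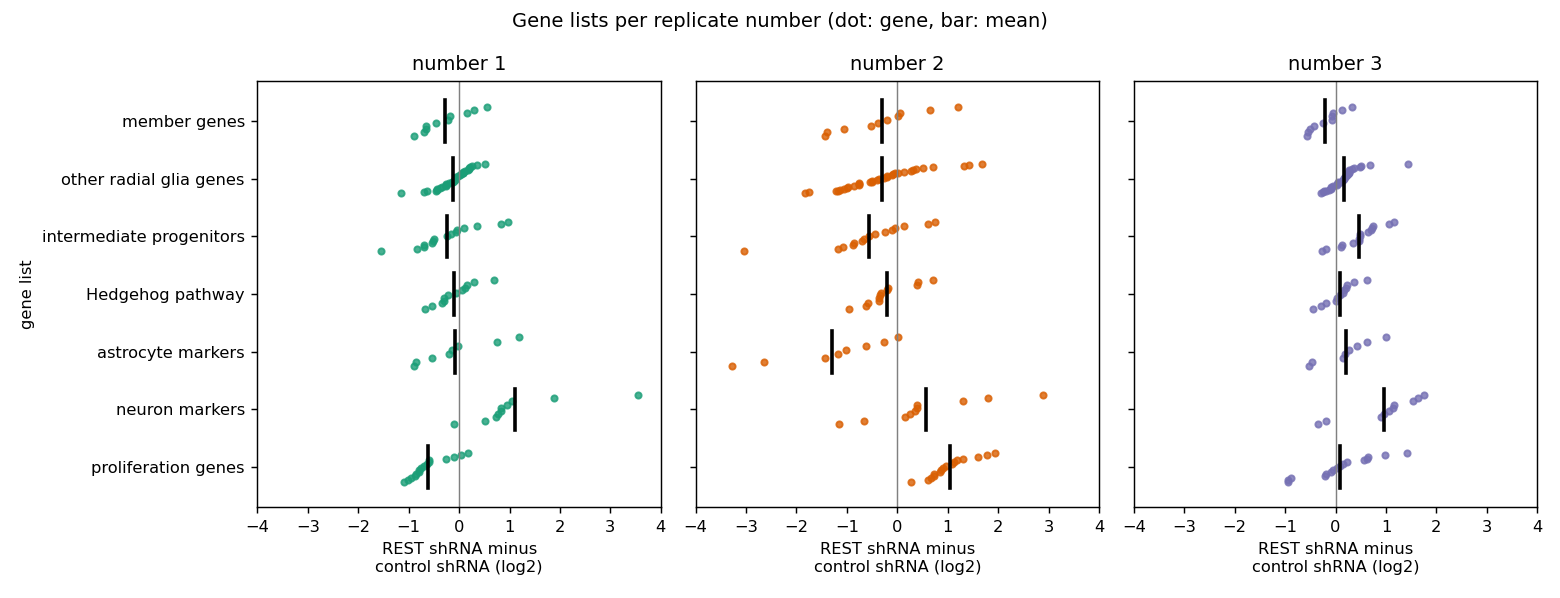
REST shRNA minus control shRNA (log2, x axis) per replicate number for 7 gene lists, each dot being the brightest probe set of a gene and each bar the list mean. The member genes keep a mean of -0.28, -0.31 and -0.20, while astrocyte markers are at -1.31 in pair 2 and proliferation genes at -0.61 and 1.04 in pairs 1 and 2.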

How the data were processed

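Expression was measured in 6 samples with 1-colour arrays. The deposited values are log2 signals, a unit taken from their range of 1.00 to 14.2; how the authors corrected background, summarised probes and normalized arrays is not given in the sources used here. Sorted values differed between arrays by 0.112 at most from their mean, so no scaling was added, and correlations between arrays ran from 0.955 to 0.993.

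Titles gave groups and replicate numbers. Of 45101 probe sets 64 array controls were left out. The platform annotation gave 1 gene for 34945 probe sets, several for 932 and none for 9160, and 34741 matched RefSeq (GRCm38.p6) by gene number. The probe set of highest mean stood for a gene.

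limma 3.58.1 in R 4.3.3 (lmFit and eBayes on group, two-sided, residual df 4, prior df 2.90) was run over 45037 probe sets with Benjamini-Hochberg adjustment at 0.05. The number of arrays limits precision: in 10 simulated tables of 45037 probe sets this step recovered 6.60% of probe sets changed 2-fold and 56.3% of those changed 4-fold. Named genes were Rest, the members and the 2 genes nearest in pattern to each member. In each other list they were any past the adjusted threshold and the 2 with the smallest unadjusted p. Other marker genes are named where a list's members, or those above or below background, are spelled out. Gfap, Nes, Dcx, Map2 and Pdgfrb were named after their values were seen. Members and lists were chosen with earlier results of these data known. List genes without a probe set of their own were not analysed here. Motif letters are textbook consensus forms.

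For arrays with the same number, deviations from their groups' means had correlations of 0.117, 0.282 and 0.402 (numbers 1, 2 and 3), so the titles' numbers were taken to pair them. REST shRNA array 2 also correlated with control array 1, at 0.231. The labels do not say what a number shares, so it was no term in the main fit, and p-values are unpaired unless the block is named. Alternatives covered the replicate block, scaling, filters on dim probe sets, the variance model, array weights, the choice of probe sets, and leaving out arrays.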

Additional observations from a re-analysis of the deposited data

How the results depend on the processing

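In all 18 alternatives 0 of the 22 member probe sets passed the adjusted threshold, and all 4 Rest probe sets stayed lower. Fabp7, the 3 probe sets of Ptprz1, Lhx2, Nr2e1 1434921_at and Pax6 1437816_at kept their direction in every alternative that held them. The count at an unadjusted p under 0.05, 2 as reported, was 0 with the replicate block, with arrays centred on their median, with either filter on dim probe sets, and without both arrays numbered 2 or both numbered 3. It was 1 with quantile normalization, array weights, the brightest probe set per gene (where 9 of 10 were negative) and without both arrays numbered 1. Leaving out single arrays gave 0 to 3 such probe sets, 12 to 20 negative ones and a median from -0.32 to -0.16, the last without REST shRNA array 2. Among the members and Rest, the replicate block took 3 probe sets past an unadjusted p of 0.05, the 2 of Ptprz1 given with the results and Rest 1425566_at (0.0551). Leaving out single arrays turned 14 probe sets, with ranges of -0.34 to 0.14 (Pax6 1452526_a_at), -0.42 to 0.053 (Pax6 1419271_at), -0.36 to 0.096 (Pax6 1425960_s_at), -0.0046 to 0.21 (Pax6 1456342_at), -0.75 to 0.068 (Prom1), -0.84 to 0.14 (Nr2e1 1457289_at), -0.31 to 0.11 (Emx2), -0.20 to 0.70 (Gli3 1455154_at), -0.26 to 0.20 (Gli3 1450525_at), -0.53 to 0.13 (Rfx4 1436931_at), -0.52 to 0.22 (Rfx4 1432053_at), and, for Ednrb 1437347_at, 1423594_a_at and 1426314_at, -0.94 to 0.067, -1.18 to 0.097 and -1.31 to 0.088. With array weights, which give REST shRNA array 2 a weight of 0.38, Pax6 1452526_a_at was 0.055, Prom1 0.036, and the Gli3 probe sets 1455154_at, 1456067_at and 1450525_at -0.13, -0.16 and -0.11. Without both arrays numbered 1, Emx2 was 0.17 and Rfx4 0.20 and 0.30. Without both numbered 2, Pax6 was 0.034, 0.0089 and 0.028 (1452526_a_at, 1419271_at, 1425960_s_at), Nr2e1 1457289_at 0.082, and Gli3 -0.38 and -0.31 (1455154_at, 1450525_at). Without both numbered 3, Gli3 1456067_at was -0.14. The cause of these turns was not tested. With fewer arrays, and 6 in all, only large differences can pass.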

Other observations

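Markers of the oligodendrocyte lineage did not run together in REST shRNA array 2, where Ednrb was low. Mbp, a myelin protein, read 10.32 there and Sox10, a factor of the lineage, 7.14, each the lowest of the 6 arrays, while the lineage factors Olig1 and Olig2 read 11.56 and 10.52, each the highest of the 6; these 4 were named after their values were seen. The summed linear signal of 7 genes was 9659, 6820 and 11367 in REST shRNA arrays 1, 2 and 3, against 8204, 7743 and 9299 in control arrays 1, 2 and 3. Their median difference was 0.04, with Pdgfra, the receptor of oligodendrocyte precursors, at -0.22 ± 0.22 (SE, log2; other probe sets -0.07 and 0.03) and Mog, a myelin protein below background, at 0.47 ± 0.45. Neural crest and Schwann cell markers, 3 of 5 above background, summed to 613, 214 and 1368 with REST shRNA and 431, 433 and 853 with control shRNA, with a median difference of 0.12. Most of this sum was Sox10 in every array, which is also counted in the oligodendrocyte list, so it is no separate reading of neural crest. Among these markers the melanocyte factor Mitf differed by -0.53 ± 0.29 and the neuregulin receptor Erbb3 by 0.83 ± 0.52, while Foxd3 and Tfap2a, which define neural crest, were below background.

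Lineages from outside the neural tube gave little signal, apart from Pdgfrb, in the pericyte and the mesenchymal list, which averaged 6.00. Of 8 endothelial and pericyte markers 3 read above background, with a median difference of -0.03. Rgs5 was at -0.28 ± 0.16 (other probe sets 0.51, 0.18 and -0.05) and Kcnj8 at -0.19 ± 0.15. Pecam1, Cdh5, Cldn5, Kcnj8 and Anpep were below background. Of 7 microglial markers 3 were above background, with a median of 0.04, Cx3cr1 at 0.24 ± 0.16 and Aif1 at 1.02 ± 0.30, at an unadjusted limma p of 0.0109 and an adjusted p of 1.00, though its mean lies below background. Meningeal and mesenchymal markers, 4 of 8 above background, were all positive with a median of 0.23, Col1a1 at 0.42 ± 0.18 and Col3a1, below background, at 0.23 ± 0.21.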
